A study of Homo sapiens with 24 samples.

Results

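The genes described here are the 5 members of the NF-κB family of transcription factors, NFKB1, RELA, NFKB2, RELB and REL, in Hodgkin lymphoma (HL) cells in which 4 of them were depleted by RNA interference. They were found as the transcript clusters, the probe sets of the array that each stand for 1 transcript locus, whose single gene symbol in the platform annotation was one of these names. Each gene had 1 cluster, so 5 of the 33297 clusters on the array are members. The study used L1236, an HL cell line derived from B cells, and measured 12 arrays (Affymetrix Human Gene 1.0 ST) in each of 2 experiments, 24 in all. In experiment 1, the p50/RelA knockdown (KD), cells were exposed for 3 days to 1 µM of siRNA against NFKB1 and for 2 days to 500 nM against RELA. In experiment 2, the p52/RelB KD, the exposure was 2 days to 500 nM of siRNA against NFKB2 and 3 days to 1 µM against RELB. Each KD had its own control, called control 1 and control 2, of cells given non-targeting siRNA, with no dose given in the sources used here. All cells were transfected passively in delivery medium with little serum and were returned to normal medium for 1 day before collection. Every arm consisted of 2 siRNA sequences in each of 3 replicates, 6 arrays in all. All arrays came from this single cell line, and because 2 genes were depleted at once, an effect of either siRNA alone cannot be told apart from that of the pair.

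NF-κB proteins act as dimers that bind κB sites in DNA. NFKB1 encodes a precursor, p105, that gives rise to p50, and NFKB2 encodes p100, from which p52 is made. Neither product has a transactivation domain, whereas RelA, RelB and c-Rel, the product of REL, carry one. In the canonical pathway, degradation of IκB proteins frees dimers such as p50-RelA. In the non-canonical pathway, the kinase NIK drives the processing of p100, and p52-RelB is released. Several family members are themselves known NF-κB target genes, and the malignant cells of HL are known for constitutive NF-κB activity.

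The 8 designed siRNAs against the 4 targets are shown because every KD value below rests on them. All were 19 bases long, with 4 to 9 G or C bases, and are printed 5′ to 3′ in lower case as listed in the study's supplement, which does not say which strand they are or which was labelled sequence 1 and which sequence 2 on the arrays. REL was not targeted.
NFKB1 a: ccaaaguauaaagauauua
NFKB1 b: ggcucauguuuacagcuuu
RELA a: cuuccaaguuccuauagaa
RELA b: ggauugaggagaaacguaa
NFKB2 a: ucauugagcagauagucua
NFKB2 b: cugucaagaucuguaacua
RELB a: guaggauucggaaaagauu
RELB b: uggagaucaucgacgagua
The longest run that any pair of these siRNAs had in common was 6 bases, found between the first NFKB1 and the first RELB siRNA and between the second RELA and the first NFKB2 siRNA. They were not compared with the transcripts of REL or of the other members, so a match to an untargeted gene was not tested.

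The deposited values are on a log2 scale, and all differences given are KD minus control of the same experiment. The arrays had medians of 6.94 to 6.99 in experiment 1 and of 7.39 to 7.51 in experiment 2, so a separate normalization was assumed and levels were not compared between experiments. One array stood apart, that of p52/RelB KD with sequence 2 in replicate 3, whose mean correlation with its arm was 0.986 where every other array of that arm had 0.993 or more. All 7 Hodgkin/Reed-Sternberg markers passed the filter that left out clusters below 6 in 50% or more of the arrays of an experiment, whereas 4 of 6 T and NK cell markers and 4 of 6 myeloid markers did not pass it in experiment 1, and 1 of 6 and 3 of 6 did not in experiment 2. Of 5 mature B cell markers with a cluster, 4 passed in either experiment. Of 5 fibroblast and endothelial markers, 4 passed in experiment 1 and 5 in experiment 2, among them PECAM1 at a mean of 12.3 in control 1. Another cluster of PECAM1 had a mean of 6.51 in control 1 and did not pass in experiment 2. No subunit gene was below 6 on any array.

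**Figure D1:**
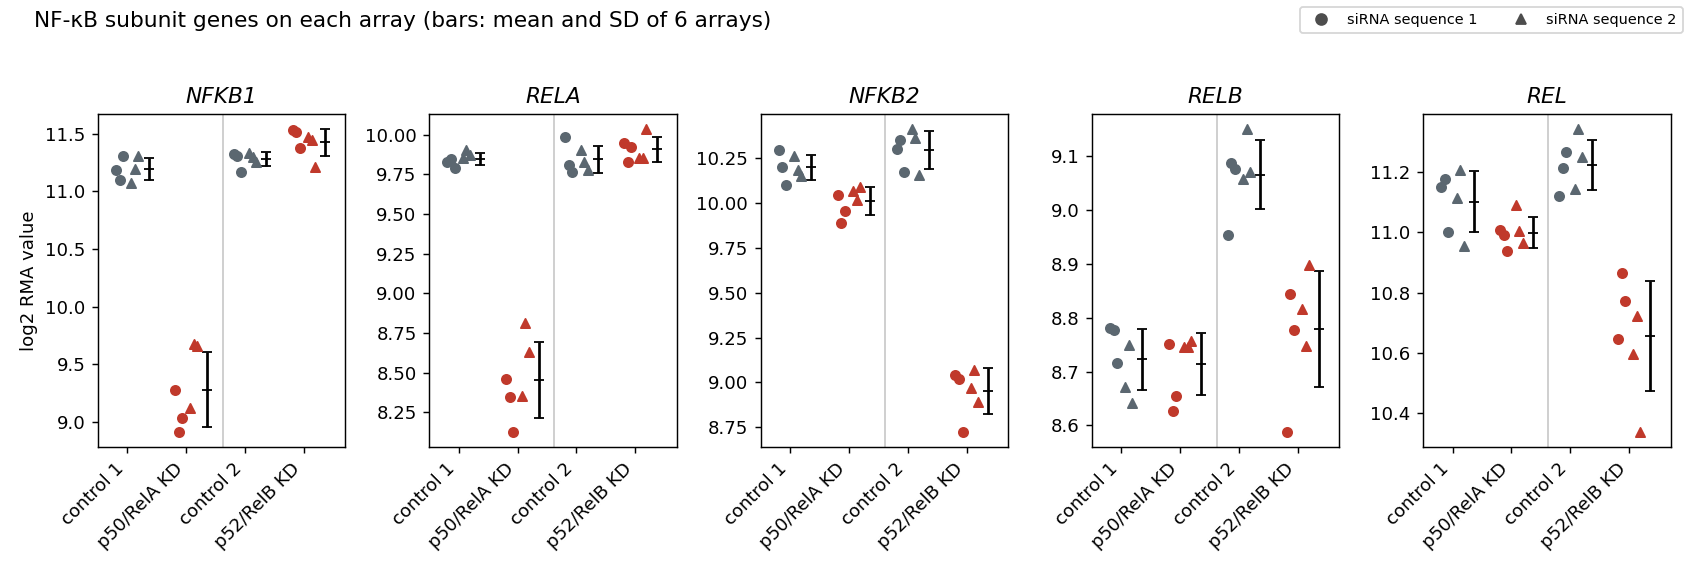
Log2 RMA value (y axis, with its own range in each panel) of the 5 subunit genes on each of the 24 arrays, in grey for control and red for KD, with circles for siRNA sequence 1 and triangles for sequence 2; bars give the mean and SD of 6 arrays, and the vertical line parts the experiments. NFKB1 and RELA lie far below control in p50/RelA KD, NFKB2 does so in p52/RelB KD, and RELB and REL are lower in p52/RelB KD by a smaller margin.

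NFKB1 and RELA, the targets of the first KD, had the lowest and the next lowest difference of all 14672 clusters tested in experiment 1. NFKB1, which encodes p105 and p50, read 11.07 at the lowest, 11.19 at the median and 11.31 at the highest in control 1. In p50/RelA KD it read 8.91, 9.20 and 9.68, so the arms were separated by 1.39. It was left at 26.5% of control (95% interval 22.2 to 31.7), a log2 difference of -1.92 ± 0.12 (SE, n = 6 per arm, limma adjusted p = 3.92e-06). RELA, which encodes the transactivating partner of p50, read 9.79, 9.85 and 9.90 in control 1 and 8.13, 8.41 and 8.81 in the KD. Its arms did not overlap either, and 38.1% of control was left (33.5 to 43.4), a log2 difference of -1.39 ± 0.09 (adjusted p = 3.92e-06). Each array was made from the RNA of a whole culture, so fewer transcripts per cell and fewer cells with the transcript cannot be told apart.

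The falls were of like size in each replicate, although the siRNA sequences did not rank alike. NFKB1 was left at 26.2%, 27.6% and 25.7% of control in replicates 1, 2 and 3, and RELA at 37.1%, 40.8% and 36.5%. NFKB1 had the lowest difference of all clusters in every replicate, and RELA ranked 2, 3 and 2. Within the KD arm, sequence 1 of NFKB1 read 9.28, 8.91 and 9.03 in the 3 replicates and sequence 2 read 9.12, 9.68 and 9.66. For RELA, sequence 1 read 8.46, 8.35 and 8.13 and sequence 2 read 8.35, 8.81 and 8.63. Sequence 2 therefore gave the lower value of both genes in replicate 1 and the higher value of both genes in replicates 2 and 3. Set against all controls, sequence 1 left 23.0% of NFKB1 (19.2 to 27.4) and sequence 2 left 30.6% (25.6 to 36.6). For RELA the levels were 34.5% (30.2 to 39.5) and 42.1% (36.8 to 48.1). The difference between the sequences was 0.41 on the log2 scale for NFKB1 (0.12 to 0.71) and 0.29 for RELA (0.06 to 0.51), but neither passed adjustment (limma adjusted p = 0.999 for both). Without replicate 1 these differences were 0.70 and 0.48, without replicate 2 they were 0.24 and 0.20, and without replicate 3 they were 0.31 and 0.17. In this contrast 0 of all clusters tested passed (0%), with 514 at an unadjusted p under 0.05 and 0 with a trended, robust prior. The same contrast within control 1 also had 0 calls (0%, 333 at an unadjusted p under 0.05 and again 0 with that prior), with NFKB1 at -0.01 and RELA at 0.06.

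NFKB2 and RELB, the targets of the second KD, responded to very different extents. NFKB2, which encodes p100 and p52, read 10.16, 10.32 and 10.41 at the lowest, median and highest in control 2, and 8.72, 8.99 and 9.07 in p52/RelB KD. The arms lay 1.09 apart, and 39.4% of control was left (37.2 to 41.9), a log2 difference of -1.34 ± 0.04 (SE, n = 6 per arm, limma adjusted p = 4.75e-09). Among the 16101 clusters tested in experiment 2 only ARG2, an arginase gene, had a lower difference. RELB, which encodes the usual partner of p52, read 8.95, 9.07 and 9.15 in control 2 and 8.59, 8.80 and 8.90 in the KD. The arms did not overlap, but the gap was only 0.05, and RELB was left at 82.0% of control (76.3 to 88.0), a log2 difference of -0.29 ± 0.05 (adjusted p = 0.00221) that ranked 410 from the lowest. The RELB call was lost without replicate 2, where the difference was -0.27 (adjusted p = 0.0774). RMA values understate large differences, and neither interval says what happened to the proteins. For these, the paper showed western blots of L1236 cells and reported depletion of the NF-κB subunits with distinct siRNAs for each. The RNA level of RELB is thus no measure of how far RelB protein was depleted.

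By replicate, NFKB2 was left at 39.1%, 40.2% and 39.0% of control, and RELB at 81.0%, 80.0% and 85.0%. Both KD sequences left NFKB2 at a like level, 38.8% for sequence 1 (35.9 to 41.9) and 40.1% for sequence 2 (37.1 to 43.3). The difference between these sequences was 0.05 on the log2 scale, with an interval of -0.08 to 0.18 (limma adjusted p = 0.677). RELB was at 79.6% with sequence 1 (72.9 to 86.9, limma adjusted p = 0.00878) and at 84.4% with sequence 2 (77.3 to 92.1, adjusted p = 0.0318), but it was not called in a fit of the sequence 2 arrays of both arms alone (-0.27, adjusted p = 0.385). On single arrays of the KD, RELB read 8.59, 8.85 and 8.78 with sequence 1 and 8.82, 8.75 and 8.90 with sequence 2. The highest RELB value in the KD was thus on the sequence 2 array of replicate 3, the array that stood apart, and without that array RELB differed by -0.31 (adjusted p = 0.000265) and NFKB2 by -1.36 (adjusted p = 2.00e-10). The contrast between the KD sequences had 0 calls among all clusters (0%, 1536 at an unadjusted p under 0.05 and 0 with a trended, robust prior). That between the control sequences also had 0 (0%, with 160 and 0 by the same measures).

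**Figure D2:**
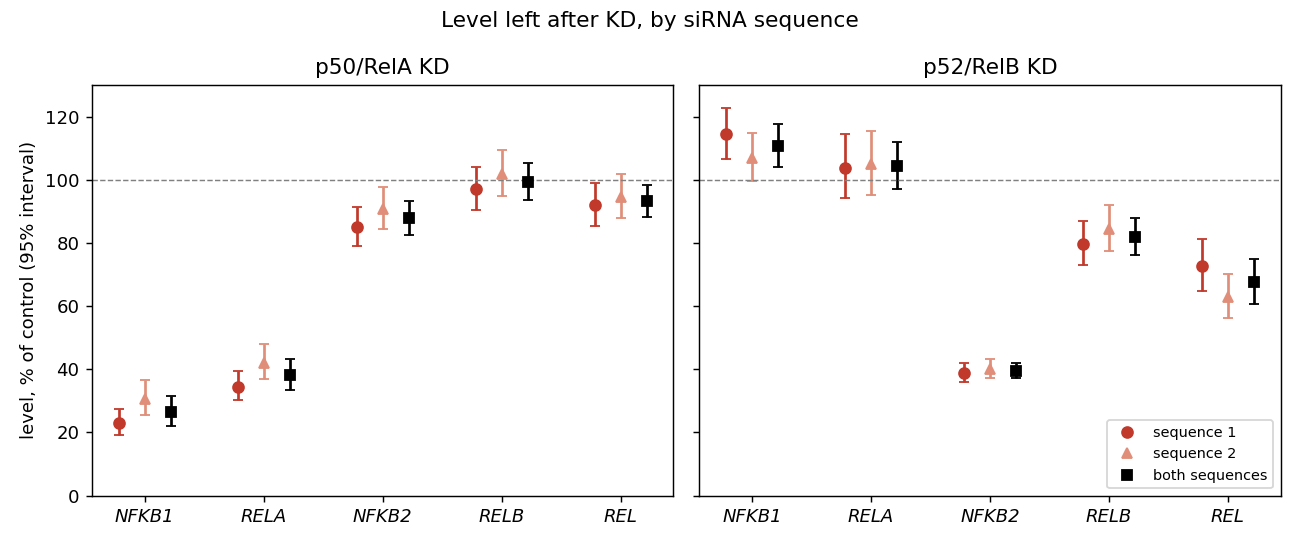
Level left after KD as a percentage of control (y axis, from 0), with 95% intervals, for the 5 subunit genes in p50/RelA KD (left) and p52/RelB KD (right), by siRNA sequence 1 (circles, 3 arrays), sequence 2 (triangles, 3 arrays) and both (squares, 6 arrays), each against all 6 controls. NFKB1, RELA and NFKB2 are left between 23.0% and 42.1% by either sequence, RELB in p52/RelB KD between 79.6% and 84.4%, and REL in p52/RelB KD between 62.8% and 72.6%.

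REL, which encodes c-Rel and was a target of neither KD, fell in p52/RelB KD. It read 11.12 at the lowest, 11.23 at the median and 11.34 at the highest in control 2 and 10.34, 10.68 and 10.87 in the KD, so that every KD array was below every control array by 0.25 or more. REL was left at 67.5% of control (60.7 to 75.0), a log2 difference of -0.57 ± 0.07 (SE, n = 6 per arm, limma adjusted p = 0.000308), which ranked 64 from the lowest. The targeted RELB was left at 82.0% (76.3 to 88.0) on the same arrays. These intervals did not overlap with both sequences pooled but did with sequence 1, and the difference between the genes was not tested. All these values are of RNA. For the protein, the paper reported an unchanged nuclear pattern of c-Rel by western blot after KD of p105/p50 and p100/p52. No KD of RelB is named for that blot, and the pattern reported is that of nuclear protein. It therefore does not give the amount of c-Rel protein in p52/RelB KD.

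REL was below control in each replicate and with each sequence. The replicates were left at 70.2%, 71.5% and 61.3% of control. KD arrays with sequence 1 read 10.65, 10.87 and 10.77 and those with sequence 2 read 10.60, 10.72 and 10.34, so sequence 2 was the lower in all 3 replicates. Against all controls, sequence 1 left 72.6% (64.9 to 81.2, limma adjusted p = 0.00549) and sequence 2 left 62.8% (56.1 to 70.2, adjusted p = 0.000839). In a fit of the sequence 2 arrays of both arms alone REL was not called (-0.70, adjusted p = 0.105). The difference between the sequences was -0.21 on the log2 scale (-0.40 to -0.02) and did not pass adjustment (adjusted p = 0.506), and without replicate 3 it was -0.098. The array that stood apart held the lowest REL value, and without it REL differed by -0.50 (adjusted p = 1.67e-06). In p50/RelA KD, REL read 10.94, 11.00 and 11.09 against 10.96, 11.13 and 11.21 in control 1. These arms overlapped, and the difference of -0.10 ± 0.04 (93.2% of control, 88.2 to 98.5) did not pass (adjusted p = 0.298).

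**Figure D3:**
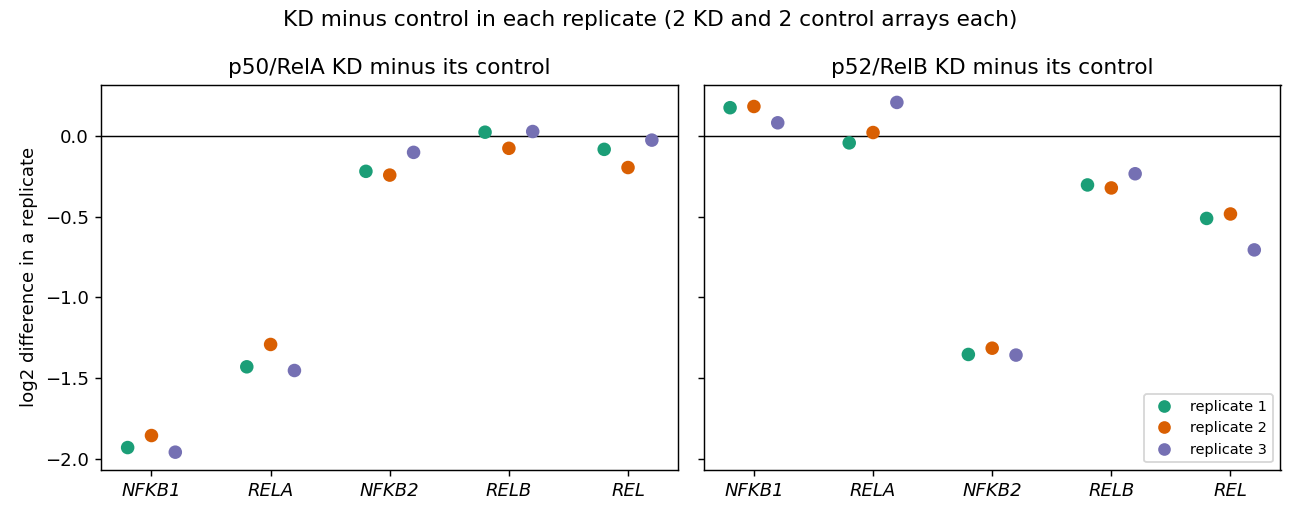
Log2 difference between KD and control (y axis) in each of 3 replicates for the 5 subunit genes, each point from 2 KD and 2 control arrays, with p50/RelA KD on the left and p52/RelB KD on the right. Points for the targets NFKB1, RELA and NFKB2 lie at -1.29 or lower, REL in p52/RelB KD lies between -0.48 and -0.71, and RELA in p52/RelB KD spreads around 0.

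Of the other subunit genes that a KD did not target, NFKB2 fell in p50/RelA KD and NFKB1 rose in p52/RelB KD, each by little. NFKB2 read 10.10, 10.19 and 10.29 in control 1 and 9.89, 10.03 and 10.09 in p50/RelA KD. The arms did not overlap, but only 0.01 lay between them. NFKB2 was left at 87.8% of control (82.6 to 93.2), a log2 difference of -0.19 ± 0.04 (SE, n = 6 per arm, limma adjusted p = 0.0457), and at 85.9%, 84.5% and 93.2% in replicates 1, 2 and 3. This call was lost without the replicate block (adjusted p = 0.109), without any 1 replicate (0.0820 to 0.451), and without any 1 of 11 of the 12 arrays (0.0507 to 0.122), the exception being the KD array of sequence 2 in replicate 3 (0.0228). Neither KD sequence alone passed against all controls (adjusted p = 0.0888 for sequence 1 and 0.518 for sequence 2).

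NFKB1 read 11.17, 11.30 and 11.34 in control 2 and 11.21, 11.46 and 11.53 in p52/RelB KD, where the arms overlapped. It stood at 111% of control (104 to 117), a log2 difference of 0.15 ± 0.04 (SE, n = 6 per arm, limma adjusted p = 0.0374), and at 113%, 113% and 106% in replicates 1, 2 and 3. Sequence 1 gave 114% (107 to 123, adjusted p = 0.0378) and sequence 2 gave 107% (99.7 to 115, adjusted p = 0.214), without a tested difference between them that passed (adjusted p = 0.506). The call was lost without the replicate block (adjusted p = 0.168), without replicate 1 (0.319) or 2 (0.330), and without any 1 of 10 of the 12 arrays (0.0664 to 0.0954), the exceptions being the sequence 2 arrays of replicate 3 in the control (0.0355) and in the KD (0.00129).

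RELB in p50/RelA KD and RELA in p52/RelB KD did not pass the test. RELB read 8.64, 8.73 and 8.78 in control 1 and 8.63, 8.75 and 8.76 in the KD, nearly the same range. The interval of its level, 93.7 to 105% of control, leaves room for a change of a few percent in either direction (limma adjusted p = 0.974). RELA read 9.77, 9.82 and 9.99 in control 2 and 9.83, 9.89 and 10.04 in p52/RelB KD, at 104% of control (97.2 to 112, adjusted p = 0.477). Its replicates differed in direction, at 97.0%, 101% and 115%, and the highest value was again on the array that stood apart.

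In p50/RelA KD, 3 of the 5 subunit genes were called lower, beside 0.825% of all clusters tested, and 3 had arms that did not overlap, beside 1.11%. No member was called higher, beside 0.245% of all clusters. In p52/RelB KD, 3 of 5 were called lower, beside 5.75% of all clusters, 1 was called higher, beside 3.93%, and 3 had arms that did not overlap, beside 5.27%. Without the array that stood apart, the clusters called higher numbered 1158 in place of 633, and without replicate 3 they numbered 1032. Of each group of 3 called lower, 2 were the siRNA targets themselves, so the untargeted genes contributed 1 of 3 in either KD. With sequence 1 alone against all controls, 2 members were called in p50/RelA KD, both targets, beside 0.327% of all clusters, and with sequence 2 the same 2, beside 0.191%. In p52/RelB KD, 4 members were called with sequence 1, beside 5.36%, and 3 with sequence 2, beside 6.53%.

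**Figure D4:**
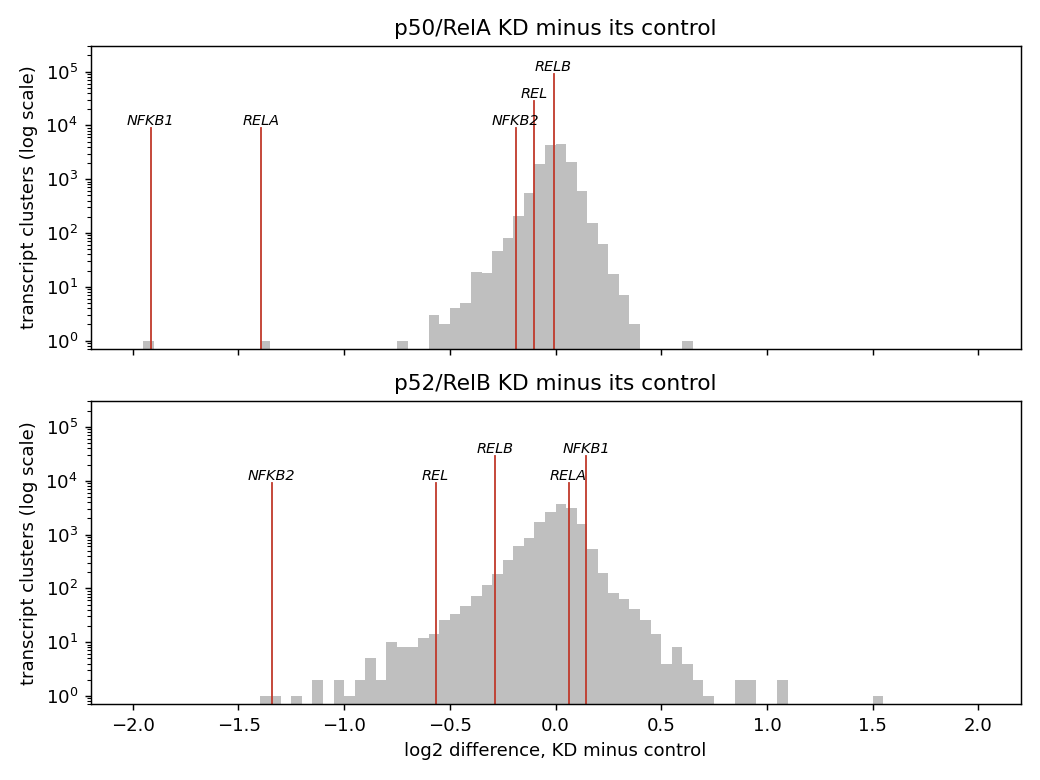
Number of transcript clusters (y axis, log scale) by log2 difference between KD and control (x axis, bins of 0.05) in p50/RelA KD (top) and p52/RelB KD (bottom), with red lines at the 5 subunit genes. In p50/RelA KD, NFKB1 at -1.92 and RELA at -1.39 lie outside all other clusters, whereas in p52/RelB KD only NFKB2 at -1.34 lies near the far end, and REL at -0.57 and RELB at -0.29 lie within the lower tail.

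Whether the KDs differed in their effect on each subunit gene was tested in one fit over all 24 arrays. All 5 passed, beside 4.35% of the 14647 clusters tested in both experiments. The p52/RelB KD effect minus the p50/RelA KD effect was 2.06 ± 0.14 for NFKB1 (SE, limma adjusted p = 9.83e-09) and 1.45 ± 0.11 for RELA (adjusted p = 2.48e-08), the targets of the first KD. It was -1.15 ± 0.05 for NFKB2 (adjusted p = 1.92e-11) and -0.28 ± 0.06 for RELB (adjusted p = 0.00887), the targets of the second. For REL, targeted by neither, it was -0.47 ± 0.08 on the log2 scale (adjusted p = 0.00135), the fall being the larger in p52/RelB KD. The RELB difference lost its call without replicate 1 (-0.25, adjusted p = 0.118), 2 (-0.29, 0.0818) or 3 (-0.29, 0.0592) of both experiments, and that of REL without replicate 1 (-0.48, 0.0639). The experiments were scanned in separate batches, so experiment and batch cannot be told apart in these differences, whereas each KD and its control shared scan batches.

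Because subunit genes can be NF-κB targets, the κB core GGGNNNNNCC and a stricter form contained in it, GGGNNTTNCC, were searched for on both strands in the 250 bases before each RefSeq start site (GRCh38.p14). Windows were found for NFKB1 (2), RELA (2), NFKB2 (3) and REL (1), and not for RELB. The core was in 54.4% of all 35116 windows and the stricter form in 5.07%. REL, NFKB1 and NFKB2 held the stricter form, in 1 of 1, 1 of 2 and 2 of 3 windows, whereas RELA held only the core, once, in 1 of its windows. The matches are shown with 9 bases on either side, in capitals where the stricter form or its reverse complement lies, all on the strand of the gene (+).
REL, chr2:60881519-60881546: tcagccgcgGGAAATTCCCctcccgcca
NFKB1, chr4:102501301-102501328: gacgtcagtGGGAATTTCCagccaggaa
NFKB2, chr10:102394462-102394489: aaacgtcatGGGAATTCCCccctccggg
NFKB2, chr10:102394491-102394519: ggccgagaaGGGGCTTTCCCggccctgag
NFKB2, chr10:102395520-102395547: acccccaccGGGGCTTCCCggattctcc
NFKB2, chr10:102395675-102395702: ggtattttcGGGACTTTCCtaagctgct
The REL match began 46 bases before the start site and that of NFKB1 49 bases before it. In the second of the NFKB2 windows 2 overlapping matches form one stretch of 11 bases. A match describes letters in a window and not binding, and no difference between the KDs was read from it.

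By the correlation of replicate-centred values over the 12 arrays of an experiment, a description that rests largely on the gap between KD and control, NFKBIA was the cluster most like both NFKB1 (Pearson r = 0.981) and RELA (0.982) in experiment 1. NFKBIA encodes IκBα, the inhibitor that holds NF-κB dimers in the cytoplasm. CCL17, a chemokine produced by HL cells, was also among the 3 most alike for both (0.975 and 0.976), with HEY1 (0.975) for NFKB1 and DOC2A (0.976) for RELA. In experiment 2, NFKB2 was most like KCNN1 (0.997), CAMK1D (0.994) and IZUMO4 (0.990), and RELB most like SLCO3A1 (0.968), CXCR5 (0.949), a chemokine receptor of B cells, and HLA-DQA1 (0.948). REL was most like TFDP2 (0.994), BIRC2 (0.993), which encodes cIAP1, and FAM78B (0.992) in experiment 2, and like FHOD1 (0.952), EEF2K (0.949) and KNOP1 (0.945) in experiment 1.

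Among 33 other genes of the pathway, 29 had a cluster with a single symbol and TRAF2, BIRC3, RIPK1 and TAB1 did not. In p50/RelA KD, 5 of the 29 were called, all lower, beside 0.825% of all clusters called lower and 0.245% higher, with a median difference of -0.04 where that of all clusters was 0.00. Of the 6 genes for IκB proteins, 2 fell, NFKBIA by 0.40 ± 0.04 (SE, limma adjusted p = 7.64e-05) and NFKBID by 0.31 ± 0.04 (adjusted p = 0.00244). TNFAIP3, which encodes the ubiquitin-editing inhibitor A20, fell by 0.45 ± 0.04 (adjusted p = 5.05e-05). BIRC2 fell by 0.25 ± 0.05 (adjusted p = 0.0283), and so did CD40, a receptor upstream of both pathways, by 0.19 ± 0.04 (adjusted p = 0.0275). The 7 kinase genes had differences of -0.03 to 0.12 and adjusted p values of 0.346 or more.

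In p52/RelB KD, 8 of the 29 were called lower and 3 higher, beside 5.75% and 3.93% of all clusters, with a median of -0.01 where that of all clusters was 0.02. BIRC2, whose product helps to degrade NIK, fell by 0.62 ± 0.08 (SE, limma adjusted p = 0.000547). MAP3K14, which encodes NIK itself, rose by 0.44 ± 0.05 (adjusted p = 0.000172). TNFRSF17, the B cell maturation antigen, fell by 0.53 ± 0.10 (adjusted p = 0.00407), from a mean of 6.80 to one of 6.28, close to the limit of 6. The inhibitor genes TNFAIP3 and TNIP1 fell by 0.35 ± 0.07 (adjusted p = 0.00831) and 0.31 ± 0.03 (adjusted p = 0.000165), and CD40 fell by 0.29 ± 0.04 (adjusted p = 0.000808). Of the 6 genes for IκB proteins, 2 were called lower in this KD as well. BCL3 had a difference of -0.27 ± 0.04 (limma adjusted p = 0.000439) and NFKBID one of -0.20 ± 0.03 (adjusted p = 0.00314). NFKBIA, by contrast, had a difference of 0.04 ± 0.05 that did not pass in this KD (adjusted p = 0.618).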

How the data were processed

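Total RNA of L1236 cells was hybridized to 24 Human Gene 1.0 ST arrays, 6 per arm. The deposited values are log2 expression from RMA (background correction, quantile normalization and summary of the probes of a transcript cluster), made by the authors with the oligo library, of a version not given in the sources used here. The methods describe an adjustment for covariates, which are not named. Since the deposited values still differed between replicates, they were read as unadjusted. They come without a detection call, and precision is limited by how many arrays there are.

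Of 33297 clusters, 19460 had 1 gene symbol, 1754 had several and 12083 were not listed in the platform annotation. Symbols were updated through the RefSeq gene table. Clusters with 1 symbol were tested with limma 3.58.1 (lmFit, eBayes) in R 4.3.3 unless they were below 6 in 50% or more of the 12 arrays of an experiment, which left 14672 and 16101. The replicate was a block and both sequences were pooled. Calls needed an adjusted p (Benjamini-Hochberg, over all clusters tested) below 0.05 and a 10% change or more (0.14 in log2 units), with limma in place of the methods' t-test. Intervals are 95% intervals of the fit. Sequences were compared in a fit of 4 cells of 3 arrays, and the KD effects in a fit of 24 arrays blocked on the 6 replicates of both experiments. The fit of KD against control was also run on simulated data with independent noise on each array. That run could not show an effect of counting the sequences of a replicate as separate arrays.

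The labels number the replicates, which the methods call biological, each made of 4 differently treated samples. The 2 arrays of an arm in a replicate differ in their siRNA sequence and were counted as separate arrays, so 6 arrays stand for 3 replicates. Level differences between replicates were taken out by the block. The p-values thus rest on the spread between sequences within a replicate and on how the KD effect varied between replicates. Deviations of the control and KD means of one replicate from the arm means were correlated (Pearson r over clusters 0.448, 0.195 and 0.251 for the replicates of experiment 1, and 0.574, 0.268 and 0.377 for those of experiment 2), so replicate numbers were taken to pair the arrays. Scan batches matched the replicates in experiment 1, and in experiment 2 one held replicate 3 and another replicates 1 and 2. No arrays were duplicates (highest correlation 0.998, with 0.021% of values identical).

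The members, the pathway and marker lists and the tests were chosen with earlier results of these data known. Named genes are the 5 members and at most 6 called pathway genes per comparison with the largest difference. Also named are the 3 clusters most like each targeted member and REL, with the 5 members left out of that ranking. ARG2, and NFKBIA, BCL3 and NFKBID in p52/RelB KD, were named after their values were seen. Alternatives covered the block, the filter, the clusters tested, the normalization, the test, the prior, the scan batch, the sequences and leaving out replicates and arrays. A comparison of the siRNAs with protein sequences and of the proteins with each other was not made, since no protein table was used here.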

Additional observations from a re-analysis of the deposited data

Results flagged for a closer look

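Each of the 5 subunit genes passed the test of the difference between the 2 KD effects (limma over 24 arrays, p52/RelB KD effect minus p50/RelA KD effect, log2 scale). The difference was 2.06 for NFKB1, 1.45 for RELA, -1.15 for NFKB2 and -0.28 for RELB, each of which was a target of one KD and not of the other, and -0.47 for REL, which was a target of neither. The RELB call was lost without replicate 1, 2 or 3 (adjusted p = 0.118, 0.0818 and 0.0592) and that of REL without replicate 1 (0.0639). No array stood out from the other 5 of its arm for any of the 5 genes by Dixon's criterion for 6 samples (critical value 0.625).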

How the results depend on the processing

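Over the 35 results on the 5 genes and 470 refits of them under another setting, 406 kept their direction and their side of the threshold, 48 lost the call and 16 changed sign. The falls of NFKB1 and RELA in p50/RelA KD and of NFKB2 in p52/RelB KD kept their call under every alternative run. NFKB2 in p50/RelA KD kept a difference of -0.19 but lost its call without the replicate block, without the filter on low values, with clusters of several or no symbols added and by the methods' t-test on deposited values (adjusted p = 0.109, 0.0808, 0.0772 and 0.144), and with sequences averaged (0.241). It lost it too when arrays were centred (-0.18, 0.0702) and with sequence 1 (-0.24, 0.162) or 2 (-0.14, 1.00) alone, and the values without 1 replicate or array ran from -0.23 to -0.16. NFKB1 in p52/RelB KD kept 0.15 and lost its call under the same settings without the block (0.168), the filter (0.0527), with clusters added (0.0533), by the methods' t-test (0.176) and with sequences averaged (0.184), when centred (0.13, 0.134) and with sequence 2 alone (0.082, 0.700), with values of 0.13 to 0.18 without 1 replicate or array. With sequence 2 alone, RELB at -0.27 (0.385) and REL at -0.70 (0.105) in p52/RelB KD were no longer called, from 3 arrays an arm. With sequences averaged in each replicate, the limma adjusted p in p52/RelB KD was 0.00711 for REL, 0.0288 for RELB and 0.000277 for NFKB2. In p50/RelA KD it was 8.87e-08 for NFKB1 and 1.73e-06 for RELA.

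Leaving out 1 replicate or array gave -0.31 to -0.26 for RELB in p52/RelB KD, -0.027 to 0.025 for RELB in p50/RelA KD, -0.011 to 0.11 for RELA in p52/RelB KD, -0.29 to -0.25 for the RELB difference between KDs and -0.55 to -0.36 for that of REL. Values near 0 changed sign. RELB in p50/RelA KD was 0.0041 after quantile normalization and 0.062 with sequence 2 alone. Sequence 2 minus sequence 1 was -0.011 for RELA in p52/RelB KD when centred, and -0.00056 and -0.019 for NFKB2 in control 1 after quantile normalization and when centred. Without 1 replicate that contrast ran within p52/RelB KD from -0.034 to 0.070 for RELA and from -0.011 to 0.11 for NFKB2, within control 1 from -0.056 to 0.049 for NFKB1 and from -0.024 to 0.016 for NFKB2, and within control 2 from -0.036 to 0.015 for RELA and from -6.5e-05 to 0.065 for NFKB2.

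The number of clusters called in p50/RelA KD was 157. It was 59 with no replicate block, 103 with no filter, 30 by the methods' t-test on deposited values and 276 on adjusted ones, 260 with a trended, robust prior, 37 and 3 with sequence 1 or 2 alone, 45 with sequences averaged, and 18 to 194 without 1 replicate or array. Further quantile normalization raised the calls that were higher from 36 to 86. In p52/RelB KD it was 1559, and 880, 725, 5 and 632 with no replicate block, by the methods' t-test, with sequence 2 alone and with sequences averaged, and 444 to 2311 without 1 replicate or array. The cause of these changes was not tested. Fewer arrays, as with 1 sequence alone, widen the error by construction.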
